A study of Homo sapiens with 14 samples.

Results

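The zinc finger genes of chromosome 19 are a family of DNA-binding repressors that lie in long tandem rows on that chromosome. Members were taken by name and place: a symbol made of ZNF, a number and at most 1 further letter, a first annotated position on chromosome 19, and at least 50 counts summed over the 14 libraries. Of 62699 genes in the count table, 265 had such a name on chromosome 19 and 244 of these reached 50 counts; 21 did not, among them 6 with no count in any library. ZNF578 with 53 counts and ZNF729 with 80 lay just inside the limit, and ZNF835 with 38 and ZNF807P with 22 just outside. The 244 members were 49.5% of all genes of this name pattern with 50 counts, the other 249 lying on other chromosomes.

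Most genes of this family encode a KRAB domain followed by a row of C2H2 fingers, short loops that each hold a zinc ion and read a few bases of DNA. Different members bind different transposable elements, and the KRAB domain recruits TRIM28 (KAP1), which brings the histone methyltransferase SETDB1 and heterochromatin proteins and so silences the bound site. The family grew by tandem duplication, much of it in primates, and near-identical copies sit side by side. ADAR, the enzyme targeted here, turns adenosine into inosine in double-stranded RNA, and many of its targets are inverted Alu repeats, which are dense on chromosome 19.

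The study sequenced polyadenylated RNA of 4 established human cancer lines: MDA-MB-231 and BT-549, both triple-negative breast cancer, NCI-H1395, lung adenocarcinoma, and AGS, gastric cancer. Each line gave 1 library with control siRNA and 2 libraries, numbered 1 and 2, with siRNA against ADAR. MDA-MB-231 gave 2 further libraries, 1 with overexpressed NOP14, a ribosome assembly factor, and 1 with its PCDH vector control. The comparisons ask how the transcriptome of each line differs with less ADAR or more NOP14. Nothing in the labels says that libraries 1 and 2 came from separate cultures or used separate siRNAs. A p-value from a fit that keeps them apart rests at least in part on the spread between them, which may be technical. The test over the 4 lines sums the 2 libraries of a line, and its p-value measures how the response varies between lines.

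The libraries held 13338338 to 27828376 counts in genes, of which the members took 0.276% to 0.489%. ADAR stood at 313 CPM (counts scaled to library size) in the control of MDA-MB-231, where ADAR siRNA libraries 1 and 2 held 99.0 and 104. The BT-549 control held 788 CPM and its ADAR siRNA libraries 103 and 90.5, the NCI-H1395 control 396 CPM and its libraries 42.2 and 45.7, and the AGS control 740 CPM and its libraries 127 and 174. NOP14 stood at 856 CPM with overexpression and at 130 CPM with PCDH, while the MDA-MB-231 siRNA control held 351 CPM. The NCI-H1395 libraries went against their lung epithelial label in marker genes, with at most 0.564 CPM of the epithelial gene EPCAM, at most 0.174 CPM of the lung factor NKX2-1 and 1470 to 2466 CPM of the mesenchymal gene VIM, though the keratin gene KRT18 stood at 383 to 589 CPM. AGS held 302 to 385 CPM of EPCAM and 47.0 to 83.5 CPM of the intestinal factor CDX2, while the gastric genes TFF1, MUC5AC and CLDN18 stayed at 2.29 CPM or less. The leukocyte genes PTPRC, CD3E and CD68 were at 1.04 CPM or less in every library. In the AGS ADAR siRNA library 1 the 1263 other genes of chromosome 19 had a median log2 ratio of -0.38 to the control, against 0.03 in library 2, and the share of mitochondrially encoded counts was 5.52% against 4.02% in library 2 and 3.73% in the control.

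Sorted by start and split where neighbouring starts lay over 1 Mb apart, 238 members fell into 10 clusters and 6 stood alone. Cluster 1 began at 2.8 Mb and held 5 members, cluster 2 spanned starts from 7.1 to 9.8 Mb with 13, and cluster 3 ran from 11.5 to 12.6 Mb with 26. Cluster 4, from 19.7 to 24.0 Mb, held 34, cluster 5, from 34.5 to 35.0 Mb, 5, and cluster 6, from 36.2 to 37.7 Mb, 27. Cluster 7 at 40.0 Mb held 3, cluster 8, from 43.5 to 45.1 Mb, 24, cluster 9, from 51.6 to 53.5 Mb, 42, and cluster 10, from 55.5 to 58.5 Mb near the end of the long arm, 59. In GENCODE release 29, 236 members were protein coding, with 134 members on the plus and 110 on the minus strand. The length used for counting ran from 1407 to 18608 exon bases with a median of 5490.

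The name of the family was checked against the translated coding sequences: of 236, 1 held no C2H2 finger pattern, and the median was 12 fingers, with up to 34. Shared sequence limits what a read can tell: 105 of the 236 shared at least 1 identical run of 75 coding bases with another gene. In 14 over 50% of such runs were shared. Other genes annotated over the same stretch of the chromosome count here too, so duplicated copies and overlapping annotation are mixed in both counts. Some members, such as ZNF20 and ZNF709, shared 100% of their runs, beside 55.6% in ZNF417. The closest pair was ZNF417 and ZNF587 of cluster 10, KRAB zinc finger genes known to repress the endogenous retrovirus HERV-K, whose coding transcripts shared an identical run of 538 bases. The 120 coding bases below, from the GENCODE transcripts on hg38, were taken at the end of that run and just after it. They were picked for their likeness and do not stand for the whole coding sequence. The capital letter marks the single difference within them.
ZNF417, minus strand, chr19:57909653-57909772: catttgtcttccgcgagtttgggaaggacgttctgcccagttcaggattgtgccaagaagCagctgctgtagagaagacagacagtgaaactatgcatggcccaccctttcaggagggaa
ZNF587, plus strand, chr19:57858918-57859037: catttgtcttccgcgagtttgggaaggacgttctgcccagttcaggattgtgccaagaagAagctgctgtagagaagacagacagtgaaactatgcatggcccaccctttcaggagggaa
Reads from within such runs cannot be placed in 1 gene of the pair. The levels of ZNF417 and ZNF587, like those of ZNF98 and ZNF492, and ZNF585A and ZNF585B, are uncertain to that extent. ZNF320 shared 1456 of its 1456 runs with any other gene but ZNF468 only 128 of its 1495, and this pair is not taken as such copies. In the annotation, 93 members shared exon bases with another gene on the same strand and 81 with a gene on the opposite strand, while 94 overlapped no other exon. No source used here gives the strand setting of the counting, and a member and its antisense partner cannot be told apart.

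Levels were compared between genes as FPKM, the count scaled to both library size and counted exon length, computed here. The members were weakly expressed in all 4 controls, with medians ranging from 1.93 FPKM in MDA-MB-231 and 1.68 in BT-549 to 1.30 in the NCI-H1395 control and 1.19 in that of AGS. The zinc finger genes on other chromosomes stood higher in each, at 2.40, 1.96, 2.33 and 2.05 FPKM. In all 4 controls 103 members reached 1 FPKM and 37 reached it in none; 104 reached it in some lines and not in others.

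ZNF146, a protein made almost wholly of fingers and lacking a KRAB domain, was the most abundant member, at chr19:36214602-36238771 in cluster 6. Its control levels were 38.5 FPKM (MDA-MB-231), 36.0 (BT-549), 51.1 (NCI-H1395) and 45.1 (AGS), and it stood at 32.1 to 61.1 FPKM over all 14 libraries. The next leaders of a cluster were ZNF428 in cluster 8, with a mean of 14.3 FPKM over the controls, and ZNF787 in cluster 10, with 14.2. ZNF428 differed widely between lines, from 3.72 FPKM in AGS to 35.1 in NCI-H1395. ZNF787 stayed between 11.8 and 18.1 FPKM. ZNF574, which stands alone, had a mean of 11.6 FPKM and ZNF317 of cluster 2 a mean of 10.6. The lead members of the other clusters had means of 6.44 (ZNF302, cluster 5), 5.63 (ZNF841, cluster 9), 5.24 (ZNF791, cluster 3), 2.74 (ZNF714, cluster 4), 1.75 (ZNF77, cluster 1) and 0.184 FPKM (ZNF780B, cluster 7). Cluster 7 thus had no member at 1 FPKM in any control.

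The clusters did not rank alike in the 4 lines. Cluster 9 had a control median of 2.46 FPKM in MDA-MB-231 and 1.96 in BT-549 but 0.938 in NCI-H1395 and 0.948 in AGS. Clusters 6 and 8 went the other way, with NCI-H1395 highest at 3.98 and 4.43 FPKM against 1.05 to 1.70 and 1.37 to 1.84 in the other lines. In an edgeR quasi-likelihood test over the 12 siRNA libraries with the treatment taken out, 226 of the 243 members tested differed between lines at a Benjamini-Hochberg adjusted p under 0.05, or 93.0%, where 88.5% of all genes tested did. Most genes of any kind thus differed between these unrelated lines, and the share in the family lay near the share of all genes.

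**Figure D1:**
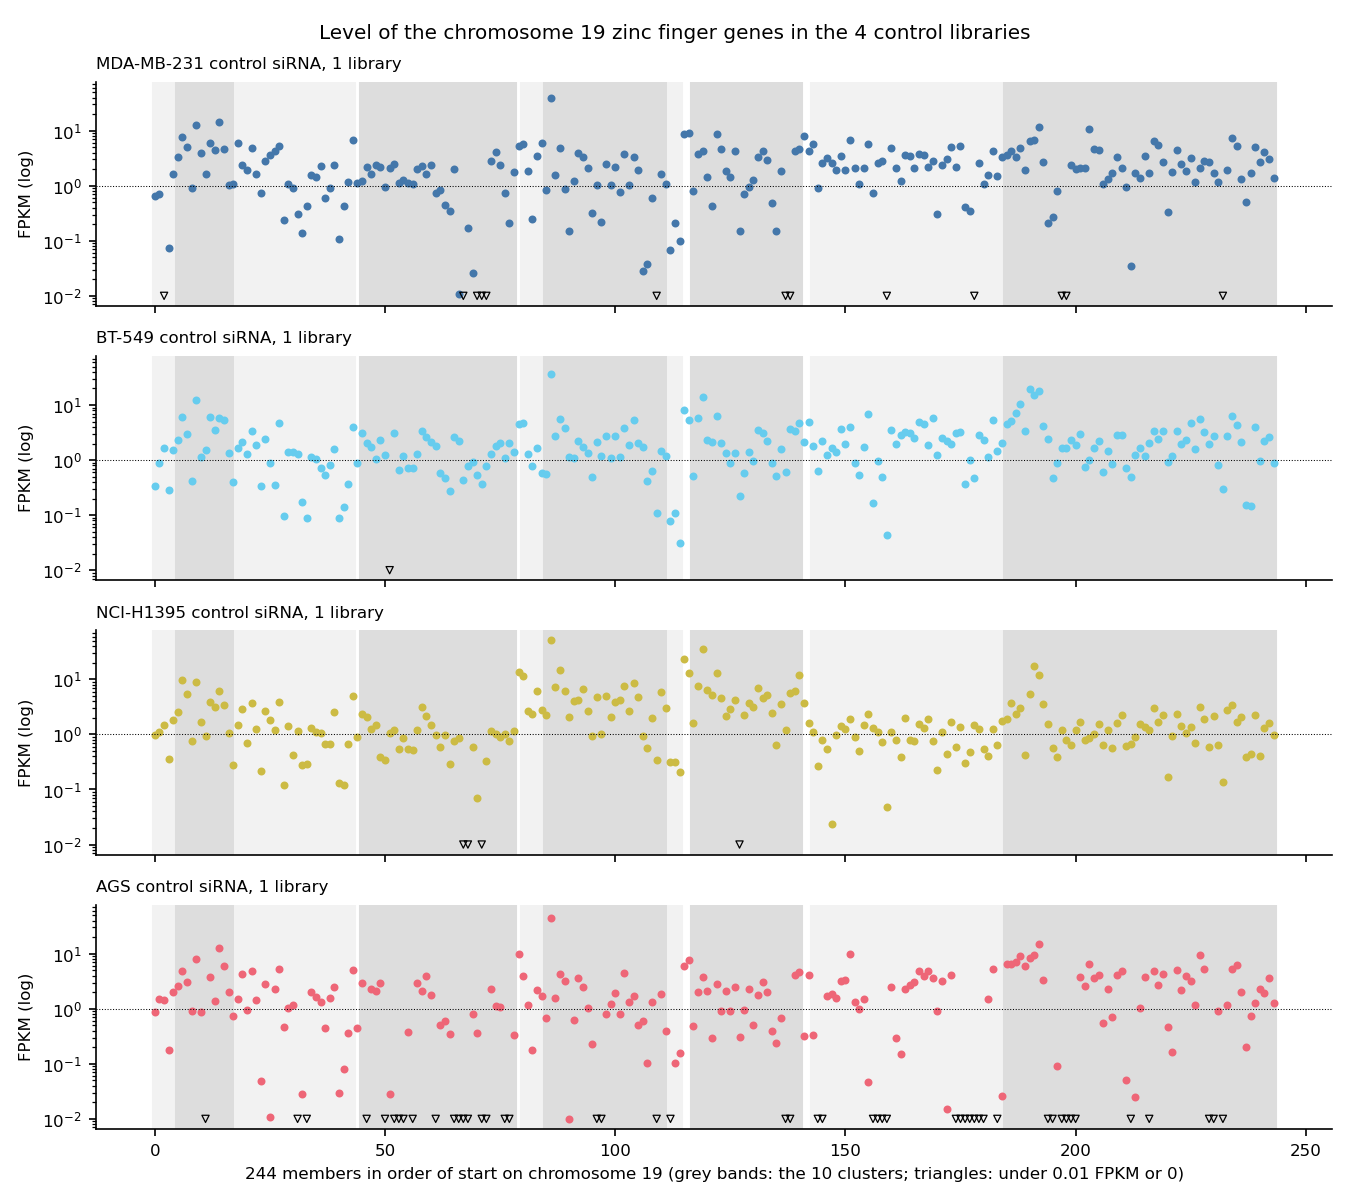
Level of each of the 244 members in the control siRNA library of each line, in FPKM on a log axis, against the order of the members along chromosome 19; grey bands mark the 10 clusters and open triangles stand for values under 0.01 FPKM, zeros included. AGS shows 44 members at 0, many of them side by side in the longest bands, where MDA-MB-231 shows 11, BT-549 shows 1 and NCI-H1395 shows 4.

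Many of the strongest differences between lines were absences. The 8 members with the smallest p for the level, among those with 1 FPKM in a control, were ZNF568, ZNF829, ZNF347, ZNF229, ZNF331, ZNF460, ZNF667 and ZNF470 (edgeR quasi-likelihood, Benjamini-Hochberg adjusted p of 2.71e-11 to 6.18e-10). ZNF347 of cluster 9 stood at 5.31, 5.16 and 5.06 FPKM in the MDA-MB-231 control and ADAR siRNA libraries 1 and 2. The BT-549 libraries held 3.28, 3.33 and 2.61 FPKM and those of NCI-H1395 1.38, 1.77 and 1.10. All 3 AGS libraries held no count of it. ZNF568, a KRAB gene whose mouse counterpart is known to repress a placental promoter of Igf2, stood at 1.18, 1.15 and 0.984 FPKM in BT-549 and at 1.01, 1.15 and 0.978 in NCI-H1395. It was lower in MDA-MB-231, at 0.223 to 0.245 FPKM, and in AGS, at 0.00290 to 0.00590. ZNF331, known as an imprinted gene, ran from 1.57 to 3.30 FPKM in the 9 siRNA libraries of the other lines and from 0.0190 to 0.0558 in AGS. ZNF460 was the exception among the 8: MDA-MB-231 siRNA libraries held 10.9 to 16.7 FPKM and AGS 5.52 to 7.47, while BT-549 and NCI-H1395 held 0.862 to 1.70.

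To describe such absences, a member was called low in a line when it stayed under 0.1 FPKM in all 3 siRNA libraries of that line and reached at least 1 FPKM in all 3 of another, a rule chosen after values were seen. By this rule 38 of 199 members with such a level elsewhere were low in AGS, or 19.1%, beside 9.81% of all genes. In MDA-MB-231 8 of 185 were low, or 4.32%, beside 4.99% of all genes. Asking for at least 2 FPKM elsewhere left 18 of 138 low in AGS, beside 7.64% of all genes. That limit left 1 of 126 low in MDA-MB-231, beside 3.42% of all genes. In BT-549 1 of 192 was low, ZNF90, beside 8.32% of all genes, and in NCI-H1395 1 of 192, ZNF350, beside 5.6% of all genes. ZNF350, known as a repressor that binds BRCA1, held at most 0.0237 FPKM in NCI-H1395 and 1.66 to 3.65 FPKM in the siRNA libraries of the other lines. The AGS share was 18.0% among protein-coding members against 7.69% among all protein-coding genes, and the zinc finger genes of other chromosomes were low there in 14 of 198 cases, or 7.07%. The genes of other names inside the cluster spans were low in 23 of 129 cases in AGS, but the protein-coding ones among them in 4 of 58, or 6.90%, so most of the low neighbours were not protein coding. In such bulk libraries fewer cells with a transcript and less RNA per cell cannot be told apart.

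The low members of AGS lay mostly in 3 clusters: 14 of 38 members with 1 FPKM elsewhere in cluster 9, 9 of 21 in cluster 4 and 9 of 52 in cluster 10. Elsewhere there were 2 of 17 in cluster 3, 2 of 22 in cluster 8, 1 of 12 in cluster 2 and 1 of 23 in cluster 6. They often stood side by side. In cluster 9 the neighbours ZNF480, ZNF610, ZNF880 and ZNF528 (chr19:52297169-52418412) were all low, as were ZNF818P, ZNF677, ZNF845 and ZNF525 (chr19:53204016-53392217), and in cluster 10 ZNF667, ZNF471, ZNF470 and ZNF71 (chr19:56439325-56626481). ZNF480 shows the contrast: it held 2.16 to 7.43 FPKM in the siRNA libraries of the other lines and at most 0.0667 in AGS. ZNF841, also of cluster 9, was in turn highest in AGS, at 9.77 FPKM in the control against 1.92 to 6.83 in the other controls, so the cluster was not low as a whole. With ADAR siRNA these genes stayed low, which the rule itself requires: the 38 together held 21 counts in the AGS control and 26 and 46 counts in ADAR siRNA libraries 1 and 2, with at most 13 counts for any gene.

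**Figure D2:**
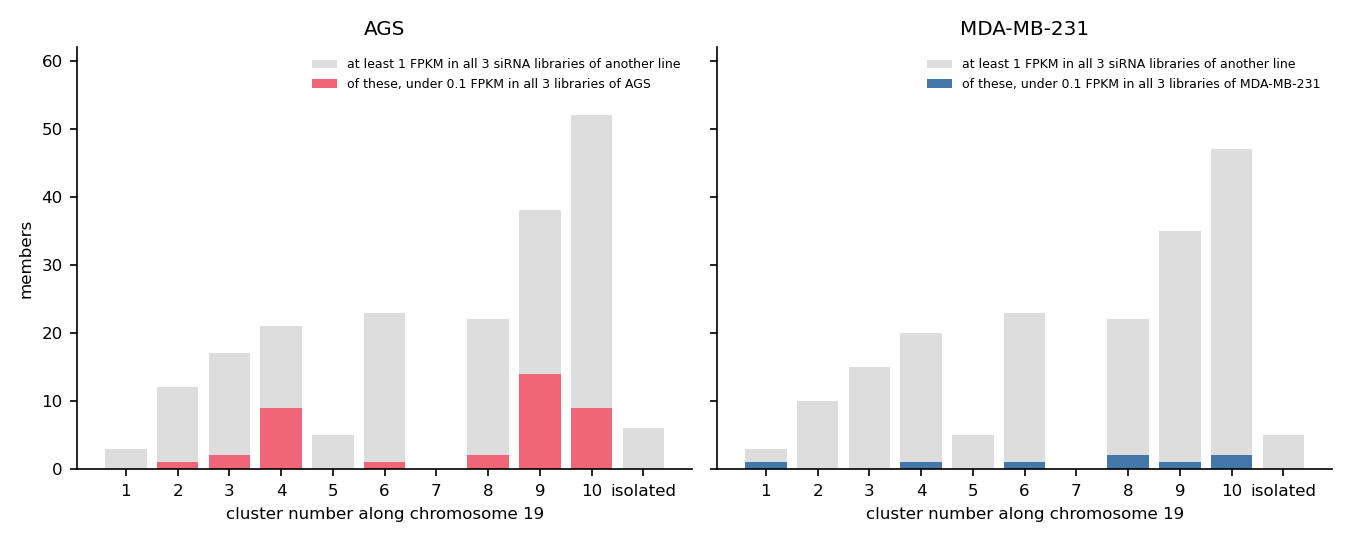
Members per cluster with at least 1 FPKM in all 3 siRNA libraries of another line (grey bars) and, of these, members under 0.1 FPKM in all 3 libraries of the line named (coloured bars), for AGS at the left and MDA-MB-231 at the right. AGS has 38 low members, most of them in clusters 4, 9 and 10, and MDA-MB-231 has 8, with at most 2 in a cluster.

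The 6 members low in both AGS and MDA-MB-231 were ZNF257, ZNF285, ZNF229, ZNF677, ZNF667 and ZNF471. ZNF229 of cluster 8 held no count in any of the 6 siRNA libraries of these lines, against 3.02 to 3.61 FPKM in BT-549 and 5.24 to 8.26 in NCI-H1395. Its neighbour ZNF285 was likewise at 0 in all 6, and at 1.19, 1.60 and 1.21 FPKM in the NCI-H1395 control and ADAR siRNA libraries. ZNF667 was at 0 in all but MDA-MB-231 ADAR siRNA library 2, where it held 0.0142 FPKM, against 1.66 to 2.18 FPKM in BT-549. Their promoters are shown because these are the members with the plainest presence and absence between lines, with that of ZNF146, the member highest in all controls, for contrast. Each run is the 250 bases before the RefSeq start on GRCh38.p14, 5′ to 3′ on the strand of the gene, with each CG pair in capitals, the base pair at which human DNA can be methylated. That start can lie inside the GENCODE gene model, and ZNF471 had no entry.
ZNF257, plus strand, chr19:22052234-22052483: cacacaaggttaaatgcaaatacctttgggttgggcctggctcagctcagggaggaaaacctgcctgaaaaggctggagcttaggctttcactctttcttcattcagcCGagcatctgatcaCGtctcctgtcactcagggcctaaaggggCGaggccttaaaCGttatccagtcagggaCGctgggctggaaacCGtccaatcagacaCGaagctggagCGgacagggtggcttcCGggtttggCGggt
ZNF285, minus strand, chr19:44401609-44401858: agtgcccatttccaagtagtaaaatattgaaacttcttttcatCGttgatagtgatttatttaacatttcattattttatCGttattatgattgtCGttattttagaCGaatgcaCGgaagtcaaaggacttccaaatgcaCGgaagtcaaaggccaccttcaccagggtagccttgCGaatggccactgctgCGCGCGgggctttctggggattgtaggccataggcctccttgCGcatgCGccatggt
ZNF229, minus strand, chr19:44448473-44448722: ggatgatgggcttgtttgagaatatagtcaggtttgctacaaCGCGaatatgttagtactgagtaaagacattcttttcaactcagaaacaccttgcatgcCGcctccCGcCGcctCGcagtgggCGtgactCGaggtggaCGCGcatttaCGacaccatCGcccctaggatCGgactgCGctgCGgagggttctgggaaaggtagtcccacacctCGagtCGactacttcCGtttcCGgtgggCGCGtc
ZNF677, minus strand, chr19:53254824-53255073: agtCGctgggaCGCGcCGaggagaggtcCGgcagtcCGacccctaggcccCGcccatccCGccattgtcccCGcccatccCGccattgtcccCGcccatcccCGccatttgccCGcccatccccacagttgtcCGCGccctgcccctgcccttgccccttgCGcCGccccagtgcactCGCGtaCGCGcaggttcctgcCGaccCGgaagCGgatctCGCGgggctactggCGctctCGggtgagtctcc
ZNF667, minus strand, chr19:56477346-56477595: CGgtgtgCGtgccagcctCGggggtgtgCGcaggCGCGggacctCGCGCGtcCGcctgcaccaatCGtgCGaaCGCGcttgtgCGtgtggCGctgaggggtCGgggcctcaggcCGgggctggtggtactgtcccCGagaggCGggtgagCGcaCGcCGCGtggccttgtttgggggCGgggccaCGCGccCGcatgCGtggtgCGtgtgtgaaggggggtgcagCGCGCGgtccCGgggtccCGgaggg
ZNF146, plus strand, chr19:36214856-36215105: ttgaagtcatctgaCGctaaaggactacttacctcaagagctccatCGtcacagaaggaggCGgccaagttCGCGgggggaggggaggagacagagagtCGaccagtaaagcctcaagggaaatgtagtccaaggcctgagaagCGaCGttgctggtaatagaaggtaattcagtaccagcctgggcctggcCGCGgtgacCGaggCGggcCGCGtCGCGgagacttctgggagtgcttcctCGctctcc
The promoters of ZNF667, with 35 CG pairs and 75.6% G or C, and ZNF677, with 28 and 72.4%, were the richest shown. Those of ZNF257 and ZNF285 held 10 and 12, fewer than the 17 of ZNF146 and the 21 of ZNF229. No methylation was measured here. Over the 208 members with an entry the median was 16 CG pairs, over the 29 low in AGS with an entry 14, over the 93 with at least 1 FPKM in every control and low in no line 17, and over all 35116 promoters 11. The GC box GGGCGG on either strand was in 63.9% of the members' promoters and 62.1% of those low in AGS, against 42.6% of all promoters, and CCAAT on either strand was in 51.0% and 58.6% against 32.0%. TATAAA on either strand was rare, in 1.92% of the members and none of those low in AGS, against 10.7% of all. AAGATGG, the core bound by YY1, was in 4.81% of the members, none of those low in AGS and 3.70% of all promoters. Matches were counted motif by motif without regard to overlap, and a match is a run of letters only.

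With ADAR siRNA no member passed edgeR's test over the lines, within a line or between lines. ADAR itself, the siRNA target, missed the threshold over the 4 lines (log2 fold change -2.50 ± 0.29 SE; edgeR, Benjamini-Hochberg adjusted p = 0.0996). It passed within each line, and in BT-549, NCI-H1395 and AGS it was the only gene called. A lack of calls thus cannot show that members did not respond. Over the 4 lines, with the 2 ADAR siRNA libraries of a line summed and the line as a block, edgeR's quasi-likelihood test called 0 of 243 members tested, where 0.0182% of all genes (4 of 21944) were called, and the smallest Benjamini-Hochberg adjusted p among members was 0.181, for ZNF627. At an unadjusted p under 0.05 there were 37 members, all higher with ADAR siRNA and none lower, or 15.2%. Of all genes tested, 6.42% were higher at that p and 11.5% had it in either direction. The median log2 fold change of the members was 0.21 against 0.06 over all genes tested. Of the 243 members, 194 were above 0, or 79.8% against 57.3%. The zinc finger genes of other chromosomes had a median of 0.15, with 194 of 248 above 0, or 78.2%, near the members' share. Of these, 12.1% had an unadjusted p under 0.05 in either direction. DESeq2, run as a second tool, called 4 members, ZNF554, ZNF627, ZNF571 and ZNF160, all higher, or 1.65% beside 3.08% of all genes (676 of 21944). Without a filter on low counts edgeR called ZNF554, ZNF627, ZNF91 and ZNF765, or 1.64% of members beside 0.952% of all genes. The pooled value rested in part on 1 line and 1 library number: the median was 0.11 without AGS and 0.09 with the libraries numbered 2 alone.

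**Figure D3:**
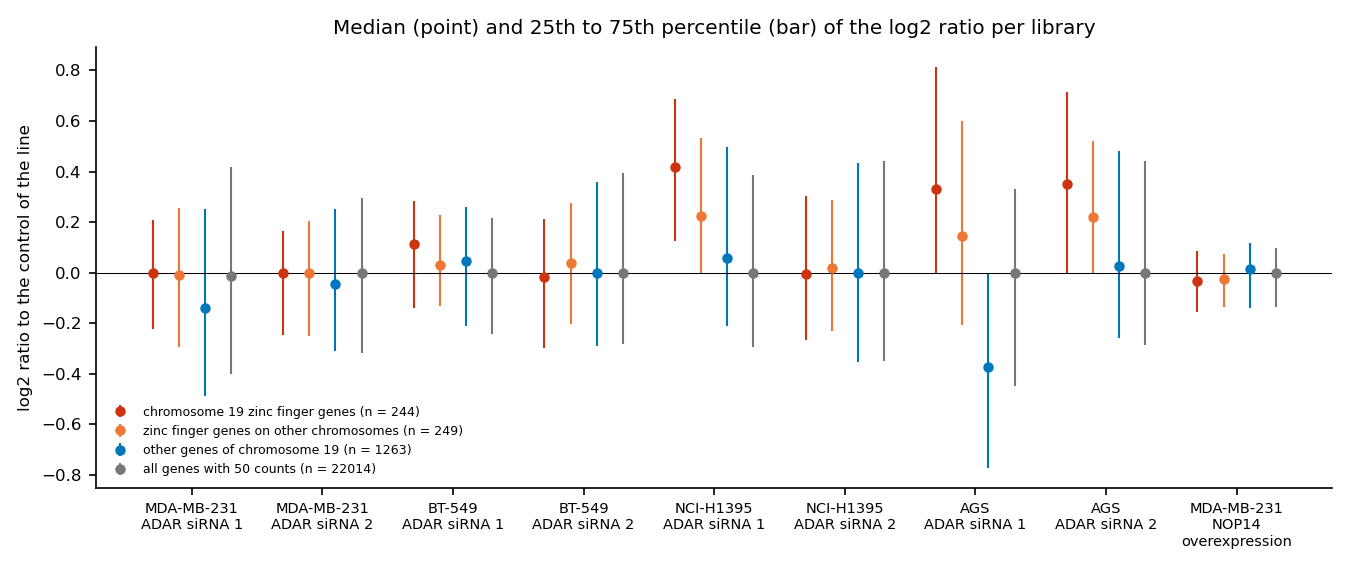
Median (point) and 25th to 75th percentile (bar) of the log2 ratio of each library to the control of its line, for the 244 members, the 249 zinc finger genes elsewhere, the 1263 other genes of chromosome 19 and all 22014 genes with 50 counts. The members stand above all genes in NCI-H1395 library 1 (0.42) and in both AGS libraries (0.33 and 0.35) and between -0.02 and 0.11 in the other ADAR siRNA libraries.

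Library by library, the ratio of scaled CPM to the control of the line (log2, with 2 counts added) ordered the lines. The medians over the 244 members were 0.33 and 0.35 in AGS libraries 1 and 2, and 0.42 and -0.00408 in NCI-H1395. In BT-549 they were 0.11 and -0.02, and in MDA-MB-231 0 and -0.000526, close to 0. Both AGS libraries were thus above their control, NCI-H1395 was so in library 1 alone, and the MDA-MB-231 medians were near 0. The median of all genes lay between -0.0124 and 0 in every ADAR siRNA library. With library totals in place of scaled sizes the all-gene median of the fit over the 4 lines moved to 0.11 and that of the members to 0.26, so the members' shift is given relative to all genes.

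The tests within a line gave the same order. They use 1 fit, with the spread shared by all 12 libraries, because each line has 1 control. In AGS edgeR called 0 members (0.00417% of all genes), with 39 at an unadjusted p under 0.05, all higher, or 16.0%, and a median of 0.47. Of all genes, 2.98% were higher at that p and 4.98% had it in either direction. Zinc finger genes of other chromosomes had 10.4% in either direction and a median of 0.25. In NCI-H1395 edgeR called 0 members (0.00417% of all genes), with 10 at that p, all higher, or 4.12%. Of all genes there, 3.13% were higher at that p and 5.30% had it in either direction. The median of the members in NCI-H1395 was 0.24. That median was 0.40 with library 1 alone and 0 with library 2 alone. In BT-549 it called 0 (0.00417% of all genes), with 1 higher and 1 lower at that p, or 0.823% beside 3.10% of all genes in either direction. In MDA-MB-231 it called 0 (0.0751% of all genes), with 2 higher and 5 lower, or 2.88% beside 4.85% of all genes in either direction. DESeq2 called 0 members in each of these 4 tests. The F test of whether the response differs between lines called 0 members (0.0292% of all genes), with 8 at an unadjusted p under 0.05, or 3.29% beside 3.37% of all genes, and DESeq2 called 0. Without a filter on low counts edgeR called 2 members for this difference, ZNF382 and ZNF114 (Benjamini-Hochberg adjusted p = 0.0184 and 0.0200), or 0.820% beside 0.304% of all genes. All genes here again include those with almost no counts.

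To keep silent genes from diluting a line, members with at least 50 counts over the 3 siRNA libraries of that line were taken, also a choice made after values were seen. In AGS 125 of 176 such members stood above the control in both libraries, or 71.0%, beside 28.9% of all genes treated alike, and 14 stood below in both. In NCI-H1395 108 of 231 were above in both, or 46.8%, beside 31.9% of all genes. In BT-549 87 of 233 were, or 37.3% beside 30.3%, and in MDA-MB-231 75 of 212, or 35.4% beside 32.5%. Zinc finger genes of other chromosomes were above in both AGS libraries in 114 of 218 cases, or 52.3%, while the other genes of chromosome 19 were so in 15.2%. In the other lines the zinc finger genes of other chromosomes lay near the members' shares. They were above in both in 109 of 234 cases in NCI-H1395, or 46.6%. In BT-549 they were so in 77 of 223, or 34.5%, and in MDA-MB-231 in 85 of 231, or 36.8%. Both ratios of a line share its 1 control. With library totals the share above in both was 77.3% of members in AGS, beside 39.0% of all genes, and 53.3% in MDA-MB-231, beside 45.0% of all genes.

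**Figure D4:**
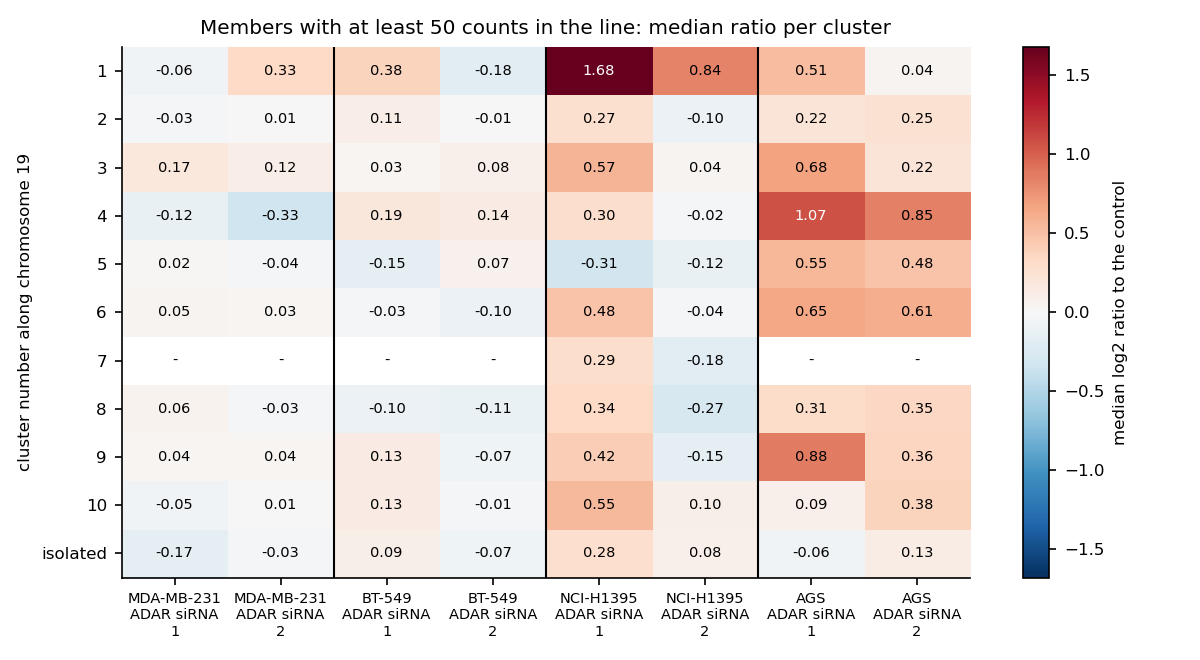
Median log2 ratio to the control of the line, by cluster (rows, numbered along chromosome 19) and ADAR siRNA library (columns), over members with at least 50 counts in the 3 siRNA libraries of the line; a dash marks fewer than 3 such members. In AGS every numbered cluster with a value lies above 0 in both libraries, from 0.04 to 1.07, and cluster 4 holds 1.07 and 0.85.

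The clusters differed in how far they were shifted. Cluster 4 had the highest pair of medians in AGS, 1.07 and 0.85 in libraries 1 and 2, with 17 of its 17 members of 50 counts above the control in both libraries. Clusters 6 and 9 followed in AGS, with 19 of 22 and 22 of 24 members above in both and medians of 0.65 and 0.61, and 0.88 and 0.36. Cluster 10, the largest, had 22 of 45 above in both and medians of 0.09 and 0.38. In NCI-H1395 the 5 members of cluster 1 stood out with medians of 1.68 and 0.84. Over all members, the cluster median exceeded that of all genes in at least 6 of the 8 ADAR siRNA libraries in 4 of 10 clusters.

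Cluster 4 holds evolutionarily young repressors such as ZNF91 and ZNF93, which are known to bind and silence SVA and LINE-1 retrotransposons. ZNF91 (chr19:23304991-23395471) stood at 1.13 FPKM in the AGS control and at 3.49 and 2.27 in ADAR siRNA libraries 1 and 2. The same 3 libraries held 4.08, 3.97 and 3.18 FPKM for MDA-MB-231, 1.77, 2.69 and 2.09 for BT-549, and 0.999, 1.67 and 1.31 for NCI-H1395. Both ADAR siRNA libraries thus exceeded the control in AGS, BT-549 and NCI-H1395, and both were under it in MDA-MB-231. ZNF708 stood at 1.77, 6.71 and 5.18 FPKM in AGS, the smallest p of any member in that line (log2 fold change 1.78 ± 0.46 SE; edgeR, unadjusted p = 0.000830, Benjamini-Hochberg adjusted p = 0.519). ZNF675 stood at 1.07, 3.30 and 2.60 FPKM in AGS but at 2.35, 1.57 and 1.36 in MDA-MB-231. ZNF429 likewise stood at 0.611, 2.05 and 1.86 FPKM in AGS and at 0.451, 0.155 and 0.248 in MDA-MB-231. These members were picked after their values were seen.

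In MDA-MB-231 17 of 27 members of cluster 4 with 50 counts stood below the control in both ADAR siRNA libraries, or 63.0%, where 43.8% of all genes did, and 1 stood above in both. That direction depended on the scaling: with library totals the MDA-MB-231 medians of the cluster turned to 0.08 and -0.27 and 7 of 27 stood below in both, while with median-ratio scaling they were -0.04 and -0.31 with 15 of 27. In AGS 17 of 17 stood above in both under each of the 3 scalings. Of 16 members with 50 counts in both AGS and MDA-MB-231, 10 were above in both AGS libraries and below in both MDA-MB-231 libraries. In the edgeR tests within lines, 13 of the 34 members of cluster 4 had an unadjusted p under 0.05 in AGS, all higher. Of all genes in AGS, 2.98% were higher at that p and 4.98% had it in either direction. In MDA-MB-231 2 members of the cluster had such a p, both lower, where 4.85% of all genes had it in either direction. None passed the Benjamini-Hochberg threshold, and the cluster was singled out after its values were seen.

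**Figure D5:**
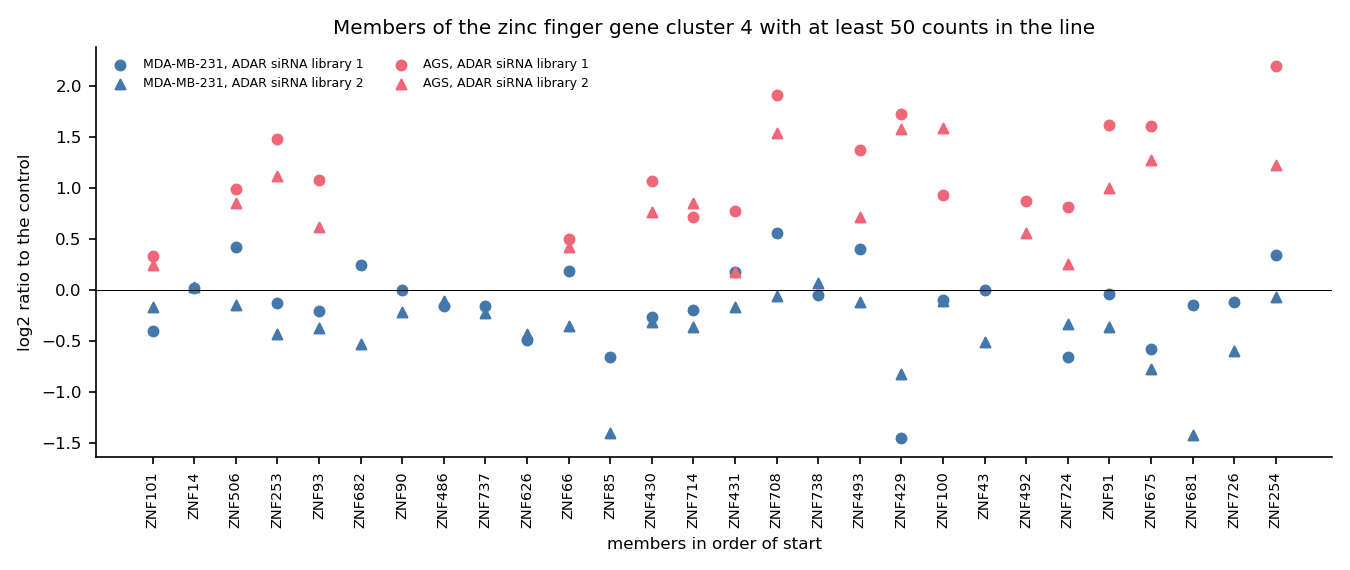
Log2 ratio to the control for each member of cluster 4 with at least 50 counts in the line, in order along the chromosome, with circles for ADAR siRNA library 1 and triangles for library 2. All AGS points lie above 0, while most MDA-MB-231 points lie below it on the TMM scaling used (with library totals the MDA-MB-231 median of library 1 is 0.08), with ZNF429 and ZNF675 among the members furthest apart.

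Among members with at least 1 FPKM on average, the 10 with the largest positive log2 fold change over the 4 lines were ZNF554, ZNF616, ZNF844, ZNF254, ZNF765, ZNF627, ZNF571, ZNF253, ZNF17 and ZNF836, from 0.93 down to 0.58, and none passed edgeR's threshold, though DESeq2 called ZNF554, ZNF627 and ZNF571. ZNF554 of cluster 1 (0.93 ± 0.25 SE; edgeR, Benjamini-Hochberg adjusted p = 0.188) stood at 0.964 FPKM in the NCI-H1395 control, while its ADAR siRNA libraries held 3.24 and 1.74. It stood at 0.345, 0.587 and 0.911 FPKM in BT-549, at 0.654, 0.612 and 0.917 in MDA-MB-231 and at 0.869, 1.10 and 1.77 in AGS, so that 7 of its 8 ADAR siRNA libraries exceeded their control. ZNF627 of cluster 3 (0.64 ± 0.17 SE; edgeR, Benjamini-Hochberg adjusted p = 0.181) stood at 4.27, 7.79 and 6.22 FPKM in AGS, at 2.96, 5.65 and 4.17 in NCI-H1395, at 2.16, 2.13 and 3.50 in BT-549 and at 2.41, 3.10 and 3.72 in MDA-MB-231. It too was higher in 7 of 8 libraries, BT-549 library 1 lying just under its control. ZNF765 of cluster 9, ZNF836 of cluster 9 and ZNF17 of cluster 10 were above their control in all 8 libraries, as were 7 further members: ZNF57, ZNF333, ZNF181, ZNF83, ZNF160, ZNF671 and ZNF586. ZNF616 was highest in 1 library, AGS library 1, where it stood at 7.62 FPKM against 1.35 in the control and 1.88 in library 2. ZNF844 is low in AGS, and its widest difference was in NCI-H1395, with 1.16, 4.11 and 1.73 FPKM.

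The 10 largest negative values were smaller, from -0.40 to -0.13, in ZNF114, ZNF887P, ZNF850, ZNF30, ZNF649, ZNF415, ZNF787, ZNF749, ZNF530 and ZNF443, and none had an unadjusted p under 0.05. ZNF114, which stands alone on the chromosome, differed in sign between lines. The MDA-MB-231 control held 8.14 FPKM and its ADAR siRNA libraries 2.23 and 2.65, and the BT-549 control 2.12 and its libraries 1.46 and 0.758. In AGS it stood at 0.322 FPKM against 0.965 and 1.20, and in NCI-H1395 at 3.74 against 2.99 and 4.27. It had the smallest p of all members for a difference in response between lines (edgeR F test, unadjusted p = 0.00101, Benjamini-Hochberg adjusted p = 0.516), and its value over the lines changed to 0.10 without MDA-MB-231. ZNF850 of cluster 6, with 29 fingers, stood below its control in 7 of 8 libraries, with control and libraries at 3.29, 2.50 and 2.37 FPKM (MDA-MB-231) and at 1.70, 1.21 and 0.867 (BT-549). ZNF878 and ZNF726 were the only members above their control in none of the 8 libraries, and ZNF726 held no count in any AGS library.

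The members tended to be lower in library 2 than in library 1. Between the 8 ADAR siRNA libraries, with the line as a block, their median log2 difference was -0.17, where all genes had 0.04. In library 2, 71 of 243 members were higher, or 29.2% beside 54.7% of all genes. edgeR called 0 of the members (0.0293% of all genes) and DESeq2 0. At an unadjusted p under 0.05 there were 22 members, or 9.05%, near the 8.72% of all genes in either direction. Of these, 21 were lower and 1 higher, or 8.64% lower where 3.18% of all genes were. ZNF616 led, with a log2 difference of -1.02 ± 0.29 SE (edgeR, Benjamini-Hochberg adjusted p = 0.207). It stood at 7.62 and 1.88 FPKM in AGS libraries 1 and 2, at 1.62 and 0.574 in NCI-H1395, at 1.38 and 1.02 in BT-549 and at 2.41 and 2.23 in MDA-MB-231, higher in library 1 of each line, and without BT-549 it passed the test (log2 difference -1.24, edgeR, Benjamini-Hochberg adjusted p = 0.00941). ADAR itself did not part the numbers in this way, with a log2 difference of 0.12 ± 0.15 SE.

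With NOP14 overexpressed the members lay close to the vector control. With 1 library on each side there is no test, and the median log2 ratio to PCDH was -0.03, with 98 members higher and 141 lower and the middle 50% between -0.15 and 0.09. Over all genes with 50 counts the median was -3.21e-05 and the middle 50% ran from -0.14 to 0.10. Among 212 members with 50 counts over both vector libraries, the highest ratios were those of ZNF460 (1.02 against 0.636 FPKM, log2 ratio 0.66), ZNF878 (0.55), ZNF818P (0.54), ZNF543 (2.41 against 1.66 FPKM, 0.53) and ZNF837 (0.42). The lowest were those of ZNF726 (-0.79), ZNF429 (0.294 against 0.435 FPKM, -0.55), ZNF575 (-0.50), ZNF443 (1.87 against 2.63 FPKM, -0.49) and ZNF738 (-0.45). ZNF460 differed far more between the 2 kinds of MDA-MB-231 control, at 10.9 FPKM with control siRNA and 0.636 with PCDH.

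The cofactors through which KRAB zinc finger proteins act stood at 7.11 CPM or more in every control, and 0 of the 44 listed passed edgeR's test over the 4 lines, with 13 at an unadjusted p under 0.05, 4 higher and 9 lower, or 29.5% beside 11.5% of all genes in either direction. Their median was 0.00806, against the 0.06 of all genes tested. TRIM28, the scaffold, stood at 465, 559, 712 and 661 CPM in the controls of MDA-MB-231, BT-549, NCI-H1395 and AGS, with a log2 fold change of -0.26 ± 0.12 SE with ADAR siRNA (edgeR, Benjamini-Hochberg adjusted p = 0.411). SETDB1, which methylates histone H3 at lysine 9, had 0.07 ± 0.12 SE. The heterochromatin protein gene CBX3 had -0.42 ± 0.11 SE (edgeR, Benjamini-Hochberg adjusted p = 0.181), being below the control in 8 of 8 libraries, while CBX1 and CBX5 had -0.09 and 0.06. Of the NuRD remodelling complex, MTA2 had -0.45 and CHD3 0.30, and the methyltransferase gene SUV39H1 had -0.64. The H3K9 demethylase genes KDM3A and KDM4B had 0.42 and 0.39, ATRX 0.40, and the DNA methylation genes DNMT1 and UHRF1 -0.35 and -0.39. These values were among the furthest from 0 in their groups and do not stand for the groups. DNMT3A and DNMT3B had 0.24 and -0.08, SUV39H2 -0.13, DAXX -0.21, and the demethylase genes KDM4A, KDM3B and KDM4C 0.07, 0.09 and 0.16. Within AGS the cofactors had a median of 0.07, with 29 of 44 above 0, or 65.9%. All genes there had a median of 0, with 49.9% above 0. Within MDA-MB-231 the cofactors had a median of -0.13, with 15 of 44 above 0, or 34.1%. All genes there had a median of 0.00715, with 50.5% above 0. TRIM28 had ratios of -0.77 and -0.37 in AGS libraries 1 and 2 and of -0.50 and -0.22 in those of MDA-MB-231. The part of these cofactors in the members' values was not tested.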

How the data were processed

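Polyadenylated RNA of 14 libraries was measured. The authors deposited whole-number read counts per gene on hg38. The submitters' processing notes name fastp 0.23.4, STAR 2.7.11a and featureCounts 2.0.6. The 3 broken lines of the table were dropped, leaving 62699 genes. Members, clusters and lists were chosen with earlier results of these data known.

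Counts were scaled with TMM (trimmed mean of M values) and tested with edgeR 4.0.16 (quasi-likelihood, robust, filterByExpr; R 4.3.3) on the whole table, with Benjamini-Hochberg adjustment and a threshold of 0.05. Over the 4 lines the ADAR siRNA pair of a line was summed and the line was a block. Tests within lines and of the difference between lines used 8 groups of 12 libraries. DESeq2 1.42.0, other scalings, filters and left-out lines or libraries were alternatives. FPKM used the deposited exon length. NOP14 has 1 library a side and no test. The fits were tested on simulated data.

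Named members are the highest of each cluster, the 10 largest positive and 10 largest negative values over the lines with at least 1 FPKM, the 8 smallest p for level, the 5 highest and 5 lowest NOP14 ratios, any member called, the limit neighbours and the cofactor list. Others were chosen after their values were seen.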

Additional observations from a re-analysis of the deposited data

Results flagged for a closer look

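Medians of the log2 ratio to the control, over members with at least 50 counts in the line, lay above 0 in both ADAR siRNA libraries of some lines and below 0 in both of another. None of these differences between lines was tested as a median. Over all such members the medians were 0.518 and 0.378 in AGS and -0.000896 and -0.00168 in MDA-MB-231, the latter close to 0. In cluster 4 they were 1.07 and 0.849 in AGS and 0.195 and 0.139 in BT-549, against -0.121 and -0.331 in MDA-MB-231. In cluster 5, with 5 members, they were 0.555 and 0.479 in AGS against -0.311 and -0.124 in NCI-H1395. In cluster 6 they were 0.654 and 0.609 in AGS and 0.0519 and 0.0315 in MDA-MB-231, against -0.0318 and -0.0956 in BT-549. In cluster 8 they were 0.308 and 0.346 in AGS against -0.103 and -0.110 in BT-549. With library totals in place of TMM scaling the MDA-MB-231 medians became 0.213 and 0.0552 over all members and 0.0801 and -0.275 in cluster 4. Those of NCI-H1395 in cluster 5 became -0.238 and 0.00927. The contrasts of sign over all members and in clusters 4 and 5 thus did not hold under that scaling. Those of clusters 6 and 8 did, with BT-549 medians of -0.0679 and -0.0617, and -0.138 and -0.0763. With median-ratio scaling the MDA-MB-231 medians over all members were 0.0855 and 0.0163, also above 0.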

How the results depend on the processing

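Each line had 1 control library, so a control cannot be told apart from its line, and the numbers of the ADAR siRNA libraries have no stated meaning. Without a filter on low counts edgeR called 4 members over the 4 lines (394 of all 41401 genes), 2 for a difference in response between lines (126) and 1 between library numbers (274 of 39942), and DESeq2 called 4 over the lines (676 of 21944). Leaving out BT-549 gave 1 call between library numbers (75 of 19916 genes). The deviations of same-numbered libraries correlated at over 0.1 in 3 of 6 pairs of lines (r from -0.07 to 0.24), so the numbers were not taken to pair libraries. A fit with the replicate number as a block called 1 member within MDA-MB-231 (ZNF114; 187 of all 23959 genes), 2 within AGS (ZNF708 and ZNF254; 65), 2 for the difference between lines (ZNF382 and ZNF114; 210) and 0 over the 4 lines. The NCI-H1395 median ran from 0 to 0.40 when 1 ADAR siRNA library was left out. The number of clusters above the all-gene median in at least 6 of 8 libraries was 4, and 7 with a limit of 500 counts or with summed counts per cluster. ZNF114 changed to 0.0973 without MDA-MB-231. The cause of these changes was not tested. With the limits for a low member varied, AGS had 18 (of 138) to 48 (of 226), beside 7.64% to 12.3% of all genes. MDA-MB-231 had 1 (of 126) to 12 (of 225), beside 3.42% to 6.49% of all genes. The difference between lines could not be fitted without a whole library number. Of the other values, 128 answering a comparison and 259 of single members kept direction and side of the threshold.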
